A study of Mus musculus with 8 samples.

Results

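Heme oxygenase opens the heme ring and releases biliverdin, carbon monoxide and iron, and biliverdin reductase turns biliverdin into bilirubin. The iron set free is stored in ferritin, a shell of heavy and light chains, or leaves the cell through ferroportin. Macrophages are known for this route because they digest old red blood cells and return their iron to the blood. Transcripts of 10 genes of this route were examined in J774A.1 cells, out of 55487 genes listed. They are the heme oxygenases Hmox1 and Hmox2, the biliverdin reductases Blvra and Blvrb, the ferritin chains Fth1 and Ftl1, the iron exporter Slc40a1 (ferroportin), the transferrin receptor Tfrc, and the metal ion transporters Slc11a1 and Slc11a2.

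The 10 genes were picked by name, with the difference between the groups already known, so their levels and differences are given as a description with no test. J774A.1 is a mouse macrophage line grown from a BALB/c tumour. RNA was sequenced from 4 libraries of cells given LPS, a bacterial cell wall component, and from 4 libraries of cells given LPS together with UDCA, a bile acid, each for 24 h. By the study's methods the dose of LPS was 1 μg/mL and that of UDCA was 1 mM. Both groups carry LPS, and cells without LPS were not analysed here, so each value compares levels under LPS. The labels do not say whether the 4 libraries came from separate cultures, and the spread between them may be technical.

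Levels are in TPM, in which reads per gene are divided by gene length and scaled to a common total, so levels of different genes can be set side by side. TPM drops the read totals, and how deeply each library was sequenced is unknown here. The values summed to between 973190 and 977485 TPM in the LPS libraries and to between 958918 and 962737 TPM with UDCA. All 10 genes had a mean of at least 1 TPM over the 8 libraries, as did 11796 genes in all, the genes tested. Of 9 macrophage markers 8 passed this filter and Mertk was at 0. The 9 together held 3939 to 4191 TPM with LPS and 1776 to 1994 TPM with UDCA, and 4 of them (Lyz2, Cd68, Itgam, Csf1r) were at least 2-fold lower while Adgre1 and Fcgr1 were at least 2-fold higher. The part of this shift in the values below was not tested. In RNA from whole cultures of a cell line, fewer cells that make a transcript and less of it per cell cannot be told apart. The 6 erythroid markers summed to at most 1.67 TPM in any library, with Hbb-bs and Hbb-bt among those at 0 throughout. The 4 lymphocyte markers summed to at most 0.47 TPM, and the 6 epithelial and fibroblast markers to at most 0.15 TPM.

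Several transcripts of iron handling carry the iron-responsive element, a hairpin to which the iron regulatory proteins bind when iron is scarce. Bound near the start of a transcript it holds back translation, and bound in the part after the coding sequence it protects the transcript from decay. The hairpin was searched as an unpaired C, a stem of 5 bases, the loop CAGTGN and the 5 bases that pair with the stem, G-T pairs included. It was found in 4 of the 10 genes, and the 7 hits are shown because they sort the genes by the side on which the element lies. Each run holds 29 bases, 5′ to 3′, from GENCODE M21 transcripts on GRCm38, with the loop in capitals.
Fth1: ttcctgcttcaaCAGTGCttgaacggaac
Ftl1: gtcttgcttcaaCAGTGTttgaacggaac
Slc40a1: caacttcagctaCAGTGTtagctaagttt
Tfrc, hairpin A: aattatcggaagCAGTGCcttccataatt
Tfrc, hairpin B: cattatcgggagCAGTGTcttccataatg
Tfrc, hairpin C: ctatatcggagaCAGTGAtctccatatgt
Tfrc, hairpin D: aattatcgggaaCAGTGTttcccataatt

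Those of Fth1 (chr19:9982732-9982760, plus strand), Ftl1 (chr7:45459779-45459807, minus strand) and Slc40a1 (chr1:45925465-45925493, minus strand) lie in the 5′ untranslated region. The Fth1 and Ftl1 runs share 26 of 29 bases, and those of Fth1 and Slc40a1 share 13. The 4 of Tfrc, A to D, lie on the plus strand in its 3′ untranslated region, at chr16:32631219-32631247, chr16:32631598-32631626, chr16:32631663-32631691 and chr16:32631710-32631738. The letters give the order of these hits only and are not established names, and Tfrc may hold further elements that the pattern misses. Of 21901 protein-coding genes, 0.142% had such a hairpin in a 5′ and 0.589% in a 3′ untranslated region. The pattern did not match a transcript of Slc11a2 or of the heme oxygenase and biliverdin reductase genes in either untranslated region. It asks for 5 paired bases beside the loop with no bulge, so an element of another shape would be missed. The lack of a match is thus no evidence that a gene lacks the element.

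The heme breakdown genes split within each pair. Hmox1 and Blvrb were higher with UDCA, and their counterparts Hmox2 and Blvra were lower, with no overlap between the groups in any of the 4 genes. Such separation was common, since 66.8% of all genes tested had no overlap, 37% higher and 29.9% lower with UDCA. Hmox1 (ENSMUSG00000005413, chromosome 8, 75093621 to 75100589 of GRCm38) encodes the inducible heme oxygenase. It had 2491, 2569.5, 2532 and 2510.2 TPM in LPS replicates 1 to 4 and 7739.6, 7455, 7729 and 7689 TPM in LPS + UDCA replicates 1 to 4. Every library with UDCA lay far above every LPS library, and each group was tight, at 2526 ± 33.9 TPM (SD, n = 4) against 7653 ± 134 TPM. The mean was 3.03-fold higher with UDCA (log2 fold change 1.60, standard error 0.023). Here and in what follows, log2 fold changes are LPS + UDCA over LPS on the log2(TPM + 1) scale, and values after ± are SDs over 4 libraries. By mean TPM, Hmox1 stood at rank 66 of the genes tested with LPS and at rank 7 with UDCA.

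Hmox2 (ENSMUSG00000004070, chromosome 16, 4726361 to 4766742) encodes the form that most cells make without a stimulus. Its values were 49.9, 56.25, 60.04 and 53.8 TPM with LPS and 36.1, 37.05, 34.3 and 37.4 TPM with UDCA. All UDCA libraries were below all LPS libraries, and the mean was 1.52-fold lower (log2 fold change -0.59, standard error 0.060). The gene Cdip1 lies across Hmox2 on the opposite strand and covers 40.2% of its exonic bases. Cdip1 had 9.94 to 11.6 TPM with LPS and 17.5 to 19.6 TPM with UDCA, the opposite direction, and the sources used here do not say whether reads were counted by strand. Hmox1 and Hmox2 shared none of their 31-base words with another gene. Together they held 2581 ± 36.8 TPM with LPS and 7689 ± 133 TPM with UDCA, of which Hmox1 made up 97.7% to 98.0% and 99.51% to 99.56%.

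Blvrb (ENSMUSG00000040466, chromosome 7, 27447978 to 27466144) encodes biliverdin reductase B, which also reduces flavins. It had 157.6, 160.7, 159.6 and 157.9 TPM with LPS and 404.4, 427.6, 403.9 and 392.7 TPM with UDCA. The UDCA libraries were all higher, by 2.56-fold in the mean (log2 fold change 1.35, standard error 0.033). Blvra (ENSMUSG00000001999, chromosome 2, 127070665 to 127097084) encodes the reductase that makes most bilirubin in the adult. It had 88.7, 100.3, 108.2 and 102.1 TPM with LPS and 55.7, 54.5, 54.5 and 48.1 TPM with UDCA. The UDCA libraries were all lower, by 1.88-fold in the mean (log2 fold change -0.89, standard error 0.069), and replicate 4 was the lowest of them.

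The pairs can be read within a library, where any scaling of the whole library drops out. Hmox1 stood at 42.2 to 49.9 times the TPM of Hmox2 with LPS and at 201.2 to 225 times with UDCA. Blvrb stood at 1.48 to 1.78 times the TPM of Blvra with LPS and at 7.26 to 8.17 times with UDCA. Both ratios were separated between the groups, by 4.59-fold and 4.79-fold in the mean, so Blvrb went from 61.5% ± 1.86 (SD, n = 4) to 88.4% ± 0.547 of biliverdin reductase TPM.

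**Figure D1:**
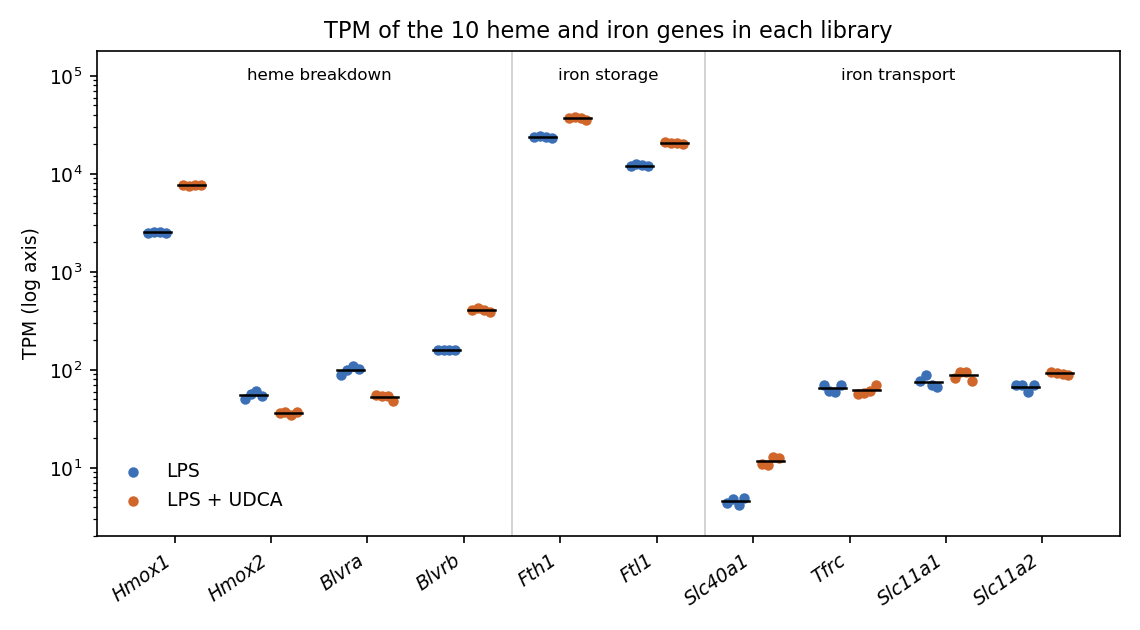
TPM of each of the 10 genes on a log axis, with a point for each of the 4 LPS libraries (blue) and the 4 LPS + UDCA libraries (orange) and a black line at the group mean. Hmox1, Blvrb, Fth1, Ftl1, Slc40a1 and Slc11a2 lie higher with UDCA without overlap, Hmox2 and Blvra lie lower, and the points of Tfrc and Slc11a1 overlap.

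Both ferritin chains were higher with UDCA, and both were among the most abundant transcripts in every library. Fth1 (ENSMUSG00000024661, chromosome 19, 9980598 to 9985098), whose chain oxidises iron on its way into the shell, had the highest mean TPM of all genes in both groups. It had 23487, 24358, 23643 and 23438 TPM with LPS and 37049, 37881, 36835 and 35719 TPM with UDCA. The groups did not overlap, and the mean was 1.55-fold higher (log2 fold change 0.64, standard error 0.025). With quantile normalization, which gives genes of the same rank the same value, this difference was 0, because Fth1 ranked first in each library.

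Ftl1 (ENSMUSG00000050708, chromosome 7, 45457944 to 45459884), whose chain favours the deposit of iron inside the shell, stood at rank 4 with LPS and at rank 3 with UDCA. It had 11984, 12440.3, 12205 and 11914 TPM with LPS and 20888, 20456, 20413 and 20177 TPM with UDCA. Again all UDCA libraries were higher, by 1.69-fold in the mean (log2 fold change 0.76, standard error 0.023). The level of Ftl1 is uncertain in part, since 57.7% of its 31-base words occur in other genes, most of them in Ftl1-ps1. Ftl1-ps1 was listed at 18.95 to 24.6 TPM with LPS and at 29.1 to 31.9 TPM with UDCA, a small amount beside Ftl1. Of the words of Fth1, 3.24% occur elsewhere.

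The ferritin pair made up 3.63% to 3.76% of the summed TPM with LPS and 5.83% to 6.06% with UDCA. The 2 chains did not move in strict step. Fth1 stood at 1.94 to 1.97 times the TPM of Ftl1 with LPS and at 1.77 to 1.85 times with UDCA, a shift of 0.921-fold in the mean with no overlap between the groups.

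The transport genes were mixed. Slc40a1 (ENSMUSG00000025993, chromosome 1, 45908068 to 45926523), the known iron exporter of mammalian cells, was the scarcest of the 10. It had 4.39, 4.85, 4.22 and 4.90 TPM with LPS and 10.9, 10.8, 12.8 and 12.5 TPM with UDCA. The groups were apart, and the mean was 2.56-fold higher with UDCA. The log2 value of this difference was 1.19 (standard error 0.082), and the added 1 TPM understates differences at this low level. With 0.1 TPM added in place of 1 it was 1.34.

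Tfrc (ENSMUSG00000022797, chromosome 16, 32608920 to 32632794), which takes up iron bound to transferrin, had 70.2, 60.4, 59.3 and 69.9 TPM with LPS and 57.2, 58.6, 61.4 and 69.6 TPM with UDCA. The groups overlapped, and the log2 fold change was -0.07 (standard error 0.080), less than the spread between libraries. The ratio of Slc40a1 to Tfrc was 0.0625 to 0.0803 with LPS and 0.179 to 0.209 with UDCA, so the exporter transcript stood closer to that of the receptor with UDCA, while still below it in each library.

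Slc11a1 and Slc11a2 are related proton-coupled metal ion transporters. Slc11a1 (ENSMUSG00000026177, chromosome 1, 74375195 to 74386062) sits in the phagosome of macrophages, and BALB/c mice are known to carry an allele of it with lost function, so the transcript level says little of transport in this line. It had 77.04, 87.5, 69.6 and 67.2 TPM with LPS and 82.6, 95.7, 95.0 and 77.7 TPM with UDCA. The groups overlapped (log2 fold change 0.22, standard error 0.096). Slc11a2 (ENSMUSG00000023030, chromosome 15, 100387898 to 100425072) moves iron out of endosomes into the cytosol. It had 70.3, 69.8, 59.6 and 69.4 TPM with LPS and 94.1, 93.6, 90.6 and 88.4 TPM with UDCA. The UDCA libraries were all higher, by 1.36-fold in the mean (log2 fold change 0.44, standard error 0.058), and LPS replicate 3 lay below the other LPS libraries.

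**Figure D2:**
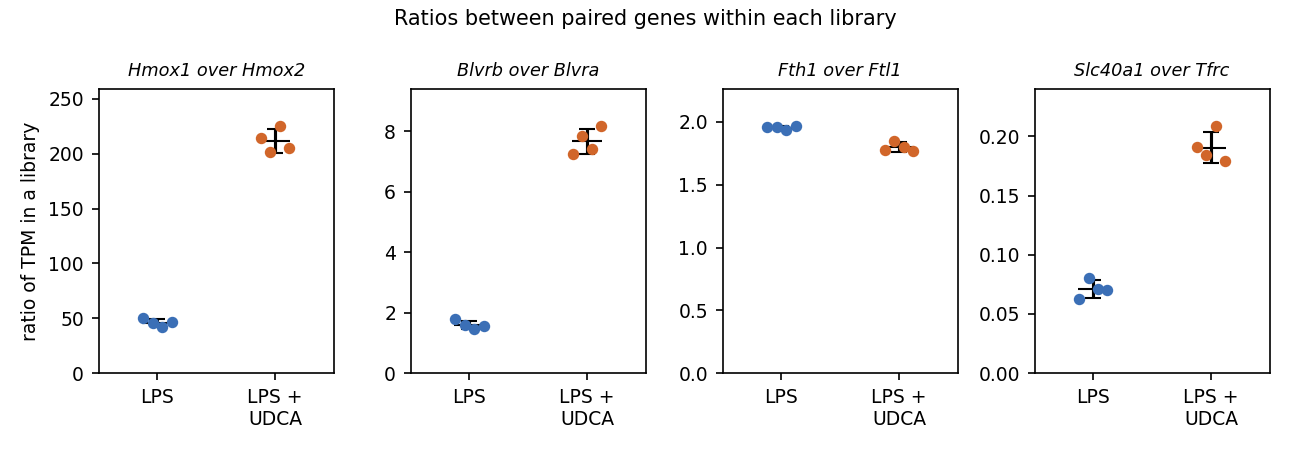
Ratio of TPM between 2 genes within each library, with a point per library (LPS blue, LPS + UDCA orange), a black line at the mean and bars of 1 SD (n = 4). In the ratios Hmox1 to Hmox2, Blvrb to Blvra and Slc40a1 to Tfrc the UDCA libraries lie above all LPS libraries, and in Fth1 to Ftl1 they lie slightly below.

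By level, the 10 genes spanned from Slc40a1 at 4.59 ± 0.337 TPM (SD, n = 4) to Fth1 at 23732 ± 427 TPM with LPS. With LPS the order from the top was Fth1, Ftl1, Hmox1, Blvrb, Blvra, Slc11a1, Slc11a2, Tfrc, Hmox2 and Slc40a1. Within it the ranges of Slc11a1 and Slc11a2, of Slc11a2 and Tfrc, and of Tfrc and Hmox2 overlapped. With UDCA the first 4 places were the same, and Slc11a2, Slc11a1, Tfrc, Blvra, Hmox2 and Slc40a1 followed. There only Slc11a2 and Slc11a1 overlapped among neighbours, and Blvra stood below Tfrc, having stood above it with LPS.

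In 8 of the 10 genes no LPS library overlapped a UDCA library, as in 66.8% of all genes tested. Of these 8, 6 were higher and 2 lower with UDCA, where all genes tested gave 37% and 29.9%. The study's methods call a gene at a 2-fold difference with an FDR under 0.05. Here the FDR came from limma on TPM, so the shares called below are not the study's own counts, which differ. By these thresholds 3 of the 10 were higher (Hmox1, Blvrb and Slc40a1) and 0 were lower, where 8.71% of all genes tested were higher and 8.44% lower, 17.1% together. Since the genes were picked with this contrast known, nothing is read from these counts. The median log2 fold change was 0.54 over the 10 genes and 0.08 over all genes tested, and for the same reason nothing is read from this difference. Over all settings tried, the log2 fold change of Hmox1 lay between 1.51 and 1.66, that of Blvrb between 1.27 and 1.47, and that of Slc40a1 between 1.09 and 1.34.

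**Figure D3:**
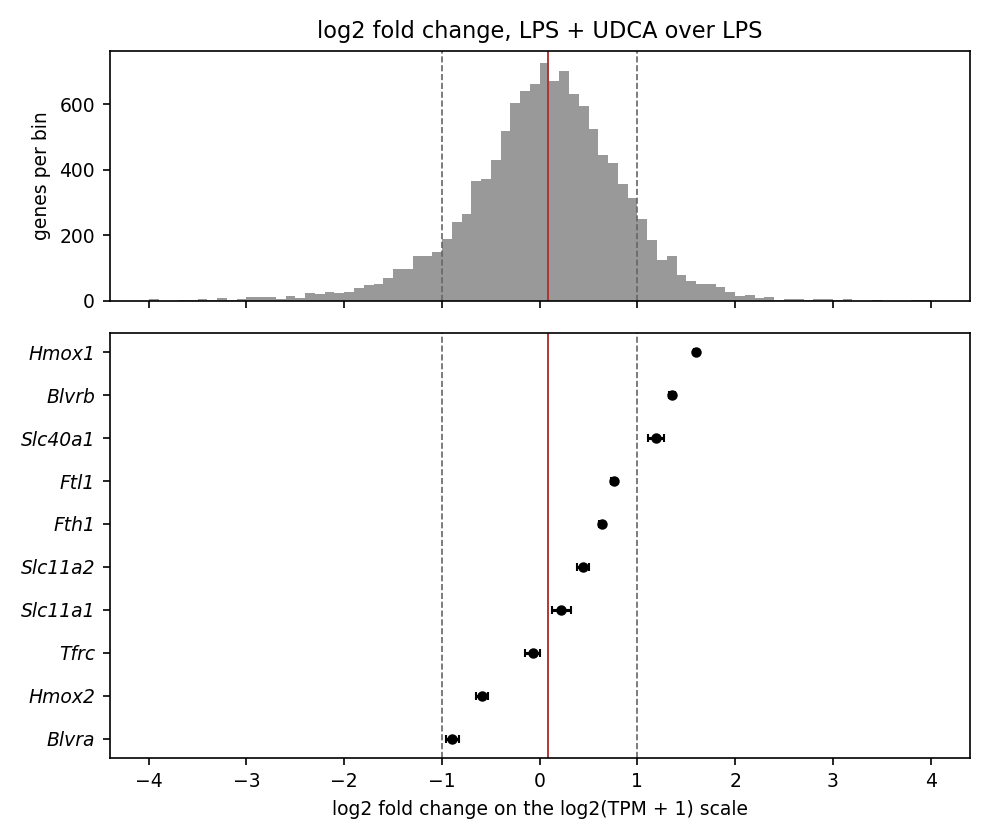
Log2 fold change, LPS + UDCA over LPS, on the log2(TPM + 1) scale. The upper panel counts the 11796 genes tested per bin, with values beyond 4 in either direction placed in the outer bins, and the lower panel shows the 10 genes with bars of 1 standard error. Dashed lines mark a 2-fold difference and the red line the median of all genes tested (0.08), and Hmox1, Blvrb and Slc40a1 lie beyond the upper dashed line.

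In the other genes of heme and iron metabolism, taken as 8 lists of 74 genes in all, 57 passed the filter on low values, 6 rose and 6 fell past both thresholds. Here the test is the fit over all 11796 genes, with Benjamini-Hochberg adjustment over all of them. The lists too were chosen with earlier results of these data known, so their counts are given as a description. The adjusted p-values below rest on the spread between libraries, which may be technical. They may thus not measure the variation between separate cultures. The background is the 8.71% and 8.44% given above. Without the fold change minimum, 26 of the 57 passed as higher and 23 as lower, where 40.2% and 32.3% of all genes tested did, 72.5% together.

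Among the partners and regulators of heme oxygenase, 3 of 7 tested genes rose and 0 fell (median log2 fold change 0.78). Bach1, a heme-binding repressor of Hmox1, had 2.16, 1.89, 1.79 and 1.78 TPM with LPS and 10.02, 9.52, 11.2 and 12.4 TPM with UDCA. It rose 5.65-fold in the mean (log2 fold change 2.01, standard error 0.097, limma adjusted p = 1.6e-07). Nfe2l2, which encodes NRF2, an activator of Hmox1, rose from 20.8 ± 1.38 to 43.6 ± 3.13 TPM (SD, n = 4; log2 fold change 1.04, limma adjusted p = 9.8e-07). Mafg, a small MAF partner of both factors, rose from 37.7 ± 2.0 to 78.8 ± 1.34 TPM (log2 fold change 1.04, limma adjusted p = 9.2e-08). So the transcripts of a repressor and of an activator of Hmox1 rose in the same libraries. With median-of-ratios scaling Nfe2l2 and Mafg stood at 0.96 and 0.97, under the minimum of 1, and without LPS replicate 2 Nfe2l2 stood just under it. Keap1, the adaptor through which NRF2 is degraded, had a log2 fold change of 0.78 (limma adjusted p = 5.5e-07), under the minimum. Por, the reductase that supplies heme oxygenase with electrons, had 298 ± 9.32 TPM with LPS and 194.6 ± 5.77 TPM with UDCA (log2 fold change -0.61).

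Of the genes that move heme and porphyrins, 2 of 6 tested rose and 0 fell (median log2 fold change 0.80). Slc48a1, which carries heme out of the phagolysosome to the heme oxygenases, had 33.5, 31.5, 30.8 and 30.7 TPM with LPS and 110.2, 109.4, 113.9 and 109.3 TPM with UDCA. It rose 3.5-fold (log2 fold change 1.78, standard error 0.041, limma adjusted p = 2.1e-09), near the size of Hmox1. Abcb6, a porphyrin transporter, rose from 22.9 ± 3.14 to 53.7 ± 3.04 TPM (log2 fold change 1.2, limma adjusted p = 3.6e-06), though 52.1% of its 31-base words also occur in Gm29253, which overlaps it. Flvcr1, a heme exporter, had 4.40 ± 0.464 and 8.27 ± 1.17 TPM (log2 fold change 0.77), under the minimum.

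Heme synthesis had 0 of 11 tested genes risen and 2 fallen (median log2 fold change -0.31). The genes that fell were Alad, the second enzyme of the pathway, from 57.8 ± 3.31 to 25.6 ± 1.56 TPM (log2 fold change -1.15, limma adjusted p = 2.5e-07), and Urod, a decarboxylase of it, from 45.4 ± 4.42 to 21.7 ± 1.92 TPM (log2 fold change -1.03, limma adjusted p = 4.3e-06). Urod lay so near the minimum that it was lost without LPS replicate 2 (just above -1), LPS replicate 4 (-0.98) or LPS + UDCA replicate 3 (-0.98), and when libraries were rescaled over all genes but the ferritins (-0.98). Alas1, which sets the pace of the pathway outside red cells, had 110.2 ± 6.85 and 84.3 ± 6.11 TPM (log2 fold change -0.38), and Fech, which puts iron into the ring, had 13.9 ± 1.16 and 18.3 ± 0.904 TPM (log2 fold change 0.37). The erythroid enzyme gene Alas2 reached at most 0.07 TPM.

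Of the receptors that clear haemoglobin and hemopexin, Lrp1 alone was tested, and it fell from 166.9 ± 13.4 to 52.0 ± 8.15 TPM (log2 fold change -1.67, limma adjusted p = 1.1e-06). Cd163, the haemoglobin scavenger receptor, was listed at 0 in all 8 libraries. Among 9 tested genes of other iron uptake, export and delivery, 0 rose and 1 fell. Steap3, which reduces iron in endosomes beside Tfrc and Slc11a2, fell from 5.82 ± 0.618 to 1.91 ± 0.239 TPM (log2 fold change -1.23, limma adjusted p = 5.3e-06). Cp, a copper enzyme that oxidises iron leaving through ferroportin, had 3.73 ± 1.27 and 8.09 ± 0.804 TPM and stood just under the minimum (log2 fold change 0.98). It passed in 6 of the alternatives, among them without LPS replicate 1 (1.13). Lcn2, which binds bacterial iron carriers, had 594 ± 6.95 and 994 ± 134 TPM (log2 fold change 0.73), under the minimum.

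For iron sensing, 0 of 4 tested genes rose and 1 fell. Ireb2 and Aco1 encode the iron regulatory proteins that bind the hairpins shown above. Ireb2 had 10.2 ± 0.926 and 17.5 ± 2.15 TPM (log2 fold change 0.72, limma adjusted p = 1.2e-04) and Aco1 had 19.1 ± 0.614 and 19.7 ± 0.974 TPM (log2 fold change 0.04, limma adjusted p = 0.50). Fbxl5, through which the Ireb2 protein is degraded when iron is plentiful, had a log2 fold change of 0.55 (limma adjusted p = 6.7e-05), under the minimum. Hfe, which binds Tfrc, fell past the thresholds (log2 fold change -1.10), but its LPS replicate 1 stood at 4.06 TPM beside 1.64 to 1.89 TPM in the others, and without it Hfe stood at -0.89. Ncoa4, the receptor that delivers ferritin to autophagy, had 18.8 ± 1.03 and 25.6 ± 1.51 TPM (log2 fold change 0.42, limma adjusted p = 1.7e-04), and 0 of the 3 tested genes for iron chaperones and other storage passed both thresholds.

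Of the 16 genes for the assembly of iron-sulfur clusters, all tested, 1 rose and 1 fell, with a median log2 fold change of 0.07. Nfu1, a late-acting carrier of clusters, rose from 94.6 ± 19.7 to 229 ± 21.5 TPM (log2 fold change 1.29, limma adjusted p = 3.8e-05), and Glrx5, a mitochondrial carrier, fell from 39.4 ± 5.94 to 16.5 ± 2.07 TPM (log2 fold change -1.2, limma adjusted p = 1.7e-05). Nfs1 and Iscu, the core of the assembly machine, had log2 fold changes of -0.40 and -0.41.

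**Figure D4:**
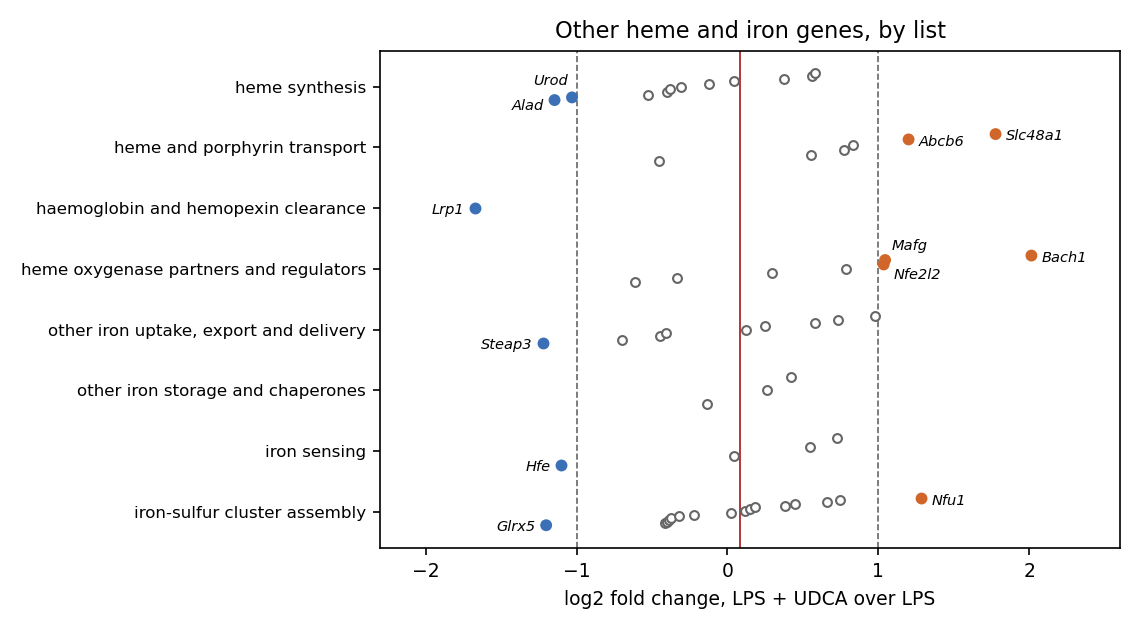
Log2 fold change, LPS + UDCA over LPS, of the 57 tested genes in 8 lists, each point a gene. Filled points passed both thresholds, orange for the 6 that rose and blue for the 6 that fell, open points did not pass, dashed lines mark a 2-fold difference and the red line the median of all genes tested (0.08).

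Genes whose profile over the 8 libraries lay nearest to that of Hmox1 were Htatip2, Trim35 and Fnbp4, with log2 fold changes of 1.64, 1.53 and 1.59 and distances of 0.172, 0.176 and 0.177. Nearest to Blvra, which had the lowest log2 fold change of the 10, were S100a4, Lat2 and Dnph1, with log2 fold changes of -0.87, -0.84 and -0.91 and distances of 0.157, 0.160 and 0.192. The distance is Euclidean on log2(TPM + 1) values centred on the LPS mean, among 7071 other genes whose mean reached 10 TPM. The libraries fall into 2 groups, so likeness here is mostly a like difference between the groups.

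RefSeq promoter windows of GRCm38.p6, from 250 bases before to 50 after the start site, were held for 7 of the 10 genes. The motif TGACNNNGC, part of the site that NRF2 binds with small MAF proteins, was searched on both strands. It occurred in 1 of the 7, Blvra, and in 14% of all genes with a window. Of the other heme and iron genes listed, tested or not, 57 had a window and 15 of these had the motif. A site outside the window would not be seen, so the lack of a match does not show that a gene lacks such a site. Hmox1, Slc40a1 and Slc11a2 had no window in this table.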

How the data were processed

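RNA of J774A.1 cells, 4 libraries with LPS and 4 with LPS + UDCA, was analysed from the TPM per gene that the authors deposited, 1 column per library with 2 decimals. The submitters' processing notes name Bowtie 0.12.2, mm10 and GRCm38 with no role. The counting program and annotation are not given in the sources used here. Groups came from the sample labels.

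The 11796 genes whose mean reached 1 TPM were fitted on the log2(TPM + 1) scale in limma 3.58.1 (R 4.3.3), using lmFit and eBayes with its trend option. Adjusted p-values are Benjamini-Hochberg over these genes. The 10 genes and all lists were chosen with earlier results of these data known. Genes were named by a rule: the 10 genes, the called genes of each list, 7 regulators of heme and iron (Bach1, Nfe2l2, Keap1, Aco1, Ireb2, Fbxl5 and Ncoa4) and the 3 nearest profiles. Por, Flvcr1, Alas1, Alas2, Fech, Cd163, Cp, Lcn2, Nfs1 and Iscu were named for their roles after their values were seen. Positions, overlaps and 31-base words shared between genes came from GENCODE M21 (GRCm38). The fit was run on data simulated as independent normal values with the SDs of these libraries. That run checks the code and does not cover technical replicates or differences near 2-fold. Alternatives covered scaling, filter, pseudocount, variance trend, replicate block, thresholds and each library left out.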

Additional observations from a re-analysis of the deposited data

Results flagged for a closer look

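In each group of 4 libraries the gap from the outermost value to its neighbour was divided by the range and set against Dixon's 95% critical value for 4 values. Of 134 groups of values 5 passed, where chance gives 6.7. LPS + UDCA replicate 4 was lowest for Blvra, at 48.08 TPM against 54.5 to 55.7 in the others (ratio 0.835). LPS replicate 3 was lowest for Slc11a2, at 59.58 TPM against 69.4 to 70.3 (ratio 0.919). LPS + UDCA replicate 3 was lowest for Aco1, at 18.22 TPM against 20.09 to 20.3 (ratio 0.908). LPS replicate 1 was highest for Hfe, at 4.06 TPM against 1.64 to 1.89 (ratio 0.897). LPS + UDCA replicate 4 was lowest for Nubp2, a scaffold gene of cytosolic iron-sulfur assembly, at 42.31 TPM against 46.75 to 47.5 (ratio 0.849).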

How the results depend on the processing

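Of the 10 genes, 3 were past both thresholds upwards and 0 downwards in every setting with the fold change minimum, except that a mean of at least 10 TPM leaves Slc40a1 untested and 2 remain. Without the fold change minimum the counts were 6 and 2, those of the other heme and iron lists 26 and 23, and those of all genes 4741 and 3807. With a mean of at least 10 TPM, 467 genes rose and 545 fell over all, among fewer genes tested. Over all genes 1028 rose and 995 fell as reported, 857 and 1121 with median-of-ratios scaling and 874 and 1088 with quantile normalization, both of which turn the balance, and 1444 and 1232 with 0.1 TPM added in place of 1. With each library left out in turn, 971 to 1130 genes rose and 964 to 1031 fell over all, and 5 to 7 rose and 5 to 6 fell in the other lists. The groups share replicate numbers. The deviations of same-numbered libraries correlated by -0.035 to 0.146, with 3 of 4 pairs over 0.1, against 1 of 12 pairs of unlike number (-0.145 to 0.162). Not every same-numbered pair passed 0.1, and LPS replicates 1 and 3 correlated best with another number, so by the rule used here the libraries were analysed unpaired. With the replicate number as a block, 2020 genes were called with and without it, and 0 of the 10 genes and 0 of the listed genes had another call. Rescaling without Fth1 and Ftl1, chosen after seeing the data, gave Hmox1 1.66. Settings moved the median of all genes by at most 0.071 (log2). Depth is unknown.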

Other observations

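Beside Fth1, Ftl1 and Slc40a1, 28 genes had the iron-responsive hairpin pattern in a 5′ untranslated region, and 19 of them were tested. Past both thresholds 1 rose and 2 fell, where 8.71% of all genes tested rose and 8.44% fell, with a median log2 fold change of 0.37 against 0.08 over all genes tested. Nudt12, a NADH hydrolase gene, rose (log2 fold change 1.26), and Nasp, a histone chaperone gene, and Aunip, a partner of Aurora A, fell (-1.10 and -1.70). The 19 include Ftl1-ps1, a near copy of Ftl1. With the pattern in a 3′ untranslated region, beside Tfrc, 5 of 82 tested genes rose and 5 fell (median log2 fold change 0.18), beside the same 8.71% and 8.44%. A match to the pattern is no evidence that a protein binds there. These genes were named after their values were seen.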
